A study of Mus musculus with 32 samples.

Results

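The levels of 9 genes that neutrophils switch on late in their development were described in 4 sorted bone marrow progenitor populations of the mouse. The genes are Ltf, Camp, Ngp, Lcn2, Mmp8, S100a8, S100a9, Chil3 and Retnlg, and they were taken by gene name from a table of 55487 genes, in which all 9 were found. Neutrophils make their granules in waves. Primary granule proteins such as myeloperoxidase and elastase are made in early precursors, secondary granule proteins follow in myelocytes under the transcription factor C/EBP epsilon, and tertiary granule proteins and cytoplasmic proteins of the late cells come last. Sorted granulocyte-monocyte progenitors lie before the secondary granule stage, so these genes mark a step later than the gates that were sorted.

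RNA sequencing was done on LSK, CMP, GMP and MEP cells from the bone marrow of 8 mice, with 1 library per mouse and gate and 32 libraries in all. LSK is the usual name of a gate that holds stem and multipotent progenitor cells, CMP and GMP stand for common myeloid and granulocyte-monocyte progenitors, and MEP for megakaryocyte-erythroid progenitors. The 4 control mice were Mx1-Cre- Cxadrfl/fl and the 4 Cxadr ko mice were Mx1-Cre+ Cxadrfl/fl, so both groups carried floxed alleles of Cxadr, the gene of the coxsackievirus and adenovirus receptor, and they differed in the Cre transgene. Mx1-Cre is switched on through a promoter that responds to interferon, while how and when it was induced, and the age of the mice, are not given in the sources used. Mouse numbers run from 1 to 4 in either genotype, and the titles do not tie a control animal to a Cxadr ko animal. By the animal numbers in the column headers, mouse 1 of both genotypes stand close together and apart from the rest.

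The libraries held 8313300 to 13641248 reads. The level used throughout is the deposited normalized count, the reads of a gene divided by 1 size factor per library, in which 1 read is worth 0.814 to 1.28. The summed level of 5 LSK markers was 3943 to 5953 in LSK libraries and 233 to 1126 in the other gates, and that of 5 GMP markers was 227380 to 365690 in GMP libraries, above every other gate. The summed level of 5 MEP markers was 879 to 1467 in MEP and 1078 to 1602 in CMP, so these markers did not set the MEP gate apart, and of all genes tested 0.00581% differed between MEP and CMP in control mice. The targeted gene did not separate the genotypes. The Cxadr count was 18.7 to 50.5 in control and 12.3 to 54.5 in Cxadr ko LSK cells, and 17.2 to 30.7 and 14.2 to 39.5 in CMP. For GMP it was 11.99 to 38.4 and 12.4 to 20.9, and for MEP 6.67 to 27.7 and 0 to 15.5, so the groups overlapped in every gate. The count covers the whole gene and not the deleted part alone, so it does not check the labels, and every genotype below is the genotype as labelled.

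Among the granule proteins, Ltf encodes lactoferrin, an iron-binding antimicrobial protein of secondary granules (ENSMUSG00000032496, chr9:111019271-111042767, plus strand, GRCm38). In control mice 1 to 4 its normalized count was 11.5, 41.3, 57.0 and 15.1 in LSK cells, 80.3, 482, 494 and 139.7 in CMP, 25.0, 611, 451 and 204 in the GMP gate and 22.9, 462, 3512 and 124 in the MEP gate. In Cxadr ko mice 1 to 4 it was 34.6, 87.5, 55.5 and 26.7 in LSK cells, 728, 3769.5, 680.2 and 542 in CMP, 86.5, 1699, 517 and 214 in the GMP gate and 968, 174, 244 and 76.5 in the MEP gate. Group medians were lowest in LSK, and control mouse 1 had the lowest value of its group in all 4 gates.

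Camp encodes the cathelicidin antimicrobial peptide of secondary granules (ENSMUSG00000038357, chr9:109847379-109849617, minus strand). In control mice 1 to 4 it stood at 36.2, 249, 293 and 39.0 in LSK cells, 115, 2556, 1547 and 1235 in CMP, 40.8, 2212, 1513 and 772 in the GMP gate and 37.2, 1424, 21279 and 952 in the MEP gate. Camp stood at 73.9, 359.9, 197 and 125 in LSK cells, 2187, 12431, 2522 and 1381 in CMP, 349, 6032, 1479.8 and 492 in the GMP gate and 2725, 2272, 155 and 278 in the MEP gate in Cxadr ko mice 1 to 4. The single MEP library of control mouse 3 held more Camp than any other library of the study, and the MEP library of control mouse 1 was close to the lowest LSK library.

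Ngp encodes neutrophilic granule protein, a cystatin-related protein of secondary granules (ENSMUSG00000032484, chr9:110419747-110423012, plus strand). Its level was 59.2, 645, 610.0 and 99.3 in LSK cells, 462, 6148, 3291 and 3203 in CMP, 108, 5712, 3652 and 2897 in the GMP gate and 123, 4166, 28216 and 2124 in the MEP gate in control mice 1 to 4. Ngp was at 140.3, 647, 317 and 255 in LSK cells, 5857, 35571, 6716 and 3098 in CMP, 613, 19545, 3851 and 1354 in the GMP gate and 8726, 4232, 759 and 671 in the MEP gate in Cxadr ko mice. Control mouse 1 again had the lowest value in every gate, and Cxadr ko mouse 2 the highest of its genotype in LSK, CMP and GMP.

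Lcn2 encodes lipocalin 2, which binds bacterial siderophores (ENSMUSG00000026822, chr2:32384633-32388252, minus strand). In control mice it was at 9.86, 9.88, 39.1 and 0.886 in LSK cells, 43.1, 151, 161 and 107 in CMP, 123, 331, 232 and 179.9 in the GMP gate and 20.96, 157, 1474 and 105 in the MEP gate. Cxadr ko mice had Lcn2 at 9.35, 50.3, 6.70 and 6.16 in LSK cells, 184, 1174, 212 and 87.8 in CMP, 105, 807, 144 and 94.0 in the GMP gate and 241, 127, 53.1 and 17.0 in the MEP gate. Its LSK values came from few reads, down to 0.886 normalized counts in control mouse 4, which is 1 read.

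Mmp8 encodes the neutrophil collagenase (ENSMUSG00000005800, chr9:7558456-7568485, plus strand). Control mice 1 to 4 had 4.93, 21.5, 23.6 and 3.55 in LSK cells, 84.2, 273, 353 and 243 in CMP, 79.8, 459, 450.1 and 460.1 in the GMP gate and 41.9, 295, 1016 and 128 in the MEP gate. Cxadr ko mice had 39.3, 67.8, 19.1 and 24.7 in LSK cells, 865, 1749, 438 and 279.6 in CMP, 145, 1179, 364 and 429 in the GMP gate and 1118, 183, 238 and 211 in the MEP gate. In control mice the LSK values lay below all values of the other 3 gates, with no overlap.

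S100a8 and S100a9 encode the subunits of calprotectin, a calcium- and zinc-binding complex that fills the neutrophil cytoplasm (ENSMUSG00000056054, chr3:90668978-90670035, plus strand, and ENSMUSG00000056071, chr3:90692632-90695721, minus strand). S100a8 was at 77.3, 509.9, 640.1 and 106 in LSK cells, 378, 6565, 3893 and 4032 in CMP, 1139, 7694, 4208 and 3410.4 in the GMP gate and 129, 3748, 39276 and 1835 in the MEP gate in control mice. It was at 251, 1228, 646 and 346 in LSK cells, 7572, 36313, 7249 and 3732 in CMP, 1783, 19189, 4559.8 and 4187 in the GMP gate and 8574, 4476, 1320.4 and 926 in the MEP gate in Cxadr ko mice. S100a8 was the highest of the 9 genes per kilobase of exon in 32 of 32 libraries. S100a9 was at 45.2, 188, 244 and 52.3 in LSK cells, 136, 2492, 1545 and 1511 in CMP, 112, 2746, 1514 and 1207 in the GMP gate and 63.8, 1391, 15995 and 579 in the MEP gate in control mice. S100a9 stood at 124, 502, 219 and 150.0 in LSK cells, 2918, 13770.0, 2707 and 1356 in CMP, 417, 7052, 1629.8 and 1645 in the GMP gate and 3165, 1561, 619 and 414 in the MEP gate in Cxadr ko mice. The ratio of the S100a8 to the S100a9 level had a median of 2.67 over the 32 libraries and ranged from 1.71 to 10.1. The highest ratio stood in GMP of control mouse 1, where S100a8 was 1139 and S100a9 112, so that S100a8 made up 65.4% of the summed level of the 9 genes. GMP of Cxadr ko mouse 1 followed with a ratio of 4.27, and the remaining libraries reached at most 3.17.

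Chil3 encodes the chitinase-like protein Ym1 (ENSMUSG00000040809, chr3:106147554-106167564, minus strand). Its values in control mice were 11.5, 47.6, 51.3 and 13.3 in LSK cells, 35.2, 398, 219.8 and 107 in CMP, 73.3, 304, 197 and 160.3 in the GMP gate and 16.2, 158, 2216 and 342 in the MEP gate. Those in Cxadr ko mice were 24.3, 79.9, 26.8 and 64.7 in LSK cells, 639, 2757, 417 and 364 in CMP, 139, 1326, 141 and 274 in the GMP gate and 897, 539, 22.9 and 179 in the MEP gate. Of the 50-base words in its exons, 26.9% also occur in other genes, mostly Chil4 and Gm6522, so its counts are uncertain where reads could be split between these copies. No other of the 9 genes shared such words, and none overlaps another gene of the table.

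Retnlg encodes resistin-like gamma, a secreted protein of late neutrophils (ENSMUSG00000022651, chr16:48872621-48874496, plus strand). It stood at 5.75, 23.3, 22.0 and 22.2 in LSK cells, 41.1, 899.6, 736 and 664 in CMP, 39.9, 1532, 414 and 532 in the GMP gate and 6.67, 466, 4474 and 101 in the MEP gate in control mice. Retnlg stood at 102, 163, 84.2 and 61.6 in LSK cells, 1697, 5306, 708 and 775 in CMP, 284, 2891, 681 and 2000.1 in the GMP gate and 2227, 525, 595 and 457 in the MEP gate in Cxadr ko mice. All 4 LSK values of Cxadr ko mice lay above all 4 of control mice, and the other gates overlapped between the genotypes.

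**Figure D1:**
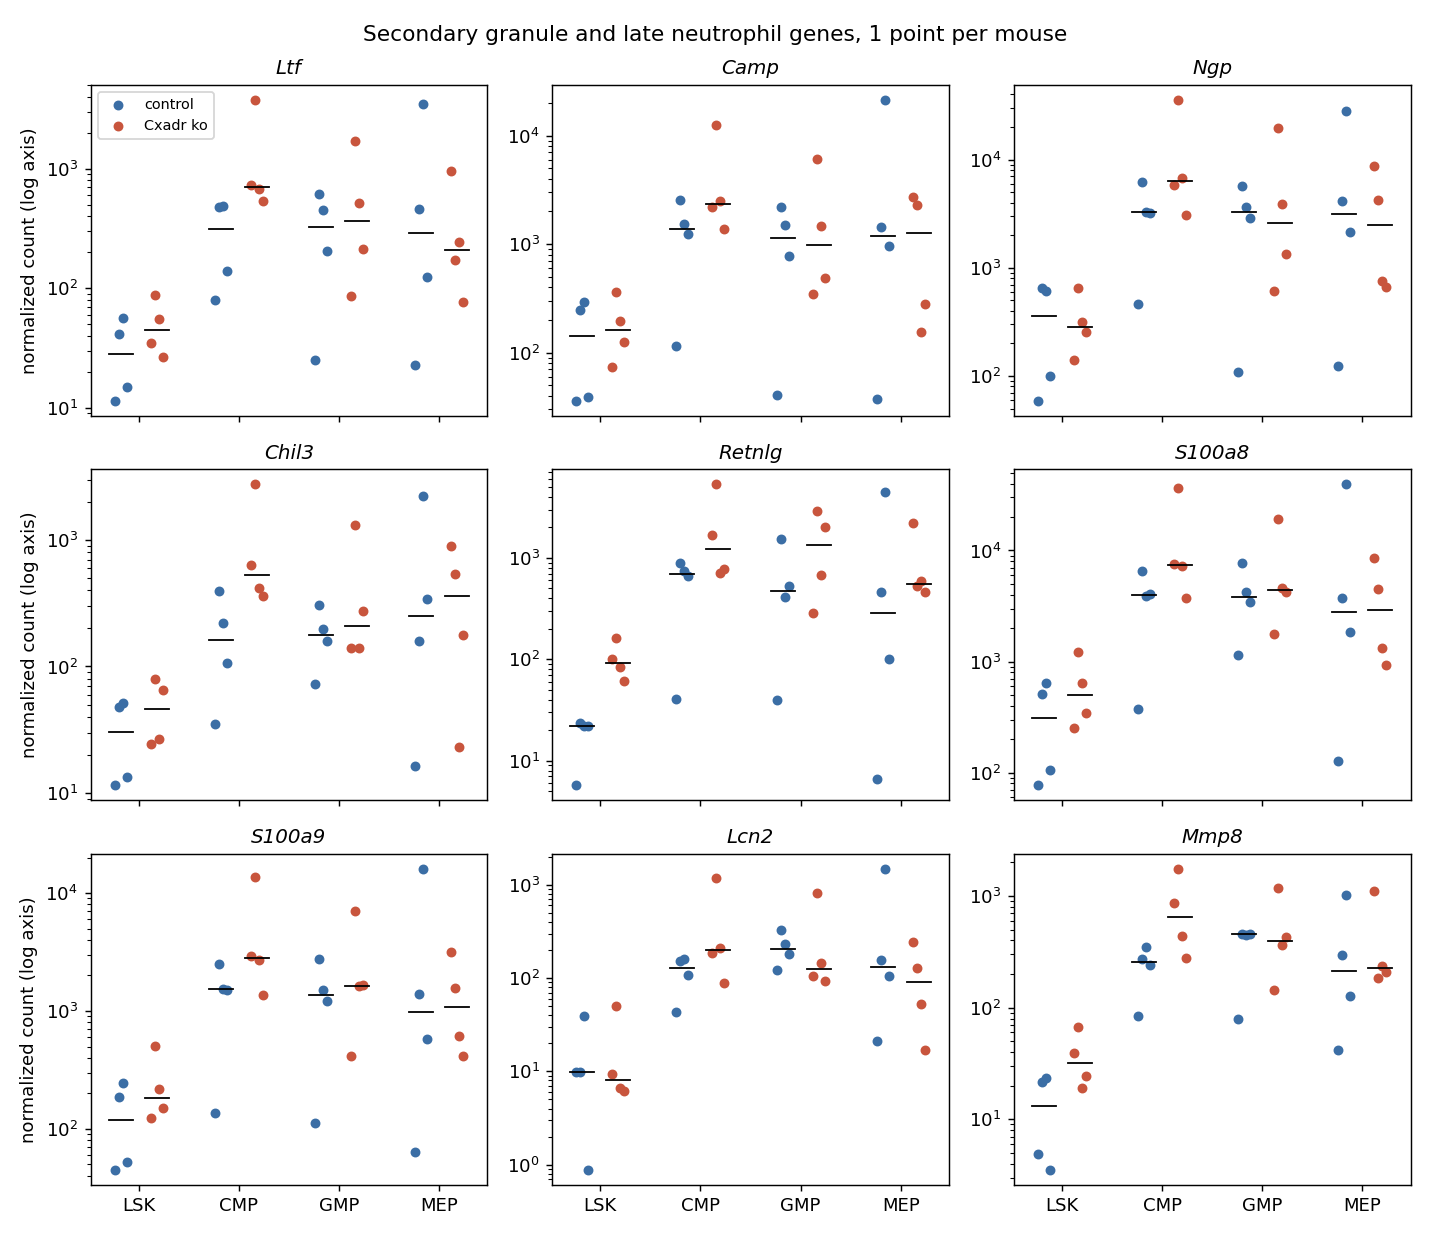
Normalized count of each of the 9 genes (y axis, log scale) by gate (x axis) in control (blue) and Cxadr ko (red) mice, with 1 point per mouse in the order of the mouse numbers and a bar at the group median. Group medians are lowest in LSK for every gene, and single libraries such as MEP of control mouse 3 (S100a8 at 39276) stand far above their group.

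Per kilobase of exon (GENCODE M21 exon lengths), the median level over the 32 libraries was 5146 for S100a8, 2455 for S100a9, 2054 for Ngp, 1137 for Camp and 836 for Retnlg. It was 99.3 for Mmp8, 97.6 for Chil3, 54.8 for Ltf and 40.4 for Lcn2. S100a9 was second in 17 libraries, Ngp in 14 and Retnlg in 1, while Mmp8, Chil3, Ltf and Lcn2 never ranked above the fifth place. Camp and Ngp kept a ratio of levels between 0.204 and 0.754 with a median of 0.390, and that of Ltf to Camp ran from 0.0768 to 1.57. The ratio of Retnlg to S100a8 levels ran from 0.0344 to 0.494.

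All 9 genes were higher in CMP, GMP and MEP than in LSK cells of control mice. Each comparison of gates was fitted with limma on log2 of the normalized count plus 1, over the 16 libraries of 1 genotype with the mouse as a block, with calls made where p, adjusted by Benjamini-Hochberg over all genes tested, was under 0.05. In control mice 9 of 9 genes were called higher in CMP than in LSK, where 21.9% of 17218 genes tested were called in either direction and 10.7% were called higher. The log2 differences of the 9 genes ran from 2.39 for Chil3 to 4.42 for Retnlg with a median of 3.41, against a median of -0.02 over all genes. Against LSK, 9 of 9 were called higher in GMP (median 3.07, background 41.9% in either direction and 19.1% higher) and 9 of 9 in MEP (median 3.41, background 26.8% and 12.6%). Each of these 9 genes was higher in 4 of 4 control mice in all 3 comparisons.

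Mmp8 had the smallest error. Its group means in control mice were 13.4 for LSK, 238 for CMP, 362 for GMP and 370.1 for MEP cells. Its log2 difference from LSK was 4.26 ± 0.45 (SE) in CMP (adjusted p = 1.53e-05), 4.74 ± 0.45 in GMP (adjusted p = 1.07e-06) and 4.19 ± 0.45 in MEP (adjusted p = 1.35e-05), all by limma. Camp had a larger error, with 3.09 ± 0.77 in CMP (adjusted p = 0.0102), 2.49 ± 0.77 in GMP (adjusted p = 0.0178) and 3.33 ± 0.77 in MEP (adjusted p = 0.00544). For S100a8 the differences were 3.45 ± 0.73, 3.87 ± 0.73 and 3.41 ± 0.73 in the same order, with limma adjusted p of 0.00367, 0.00065 and 0.00334. With the mouse not used as a block, which leaves the spread between mice in the error, 3 of 9 were called in CMP, 4 in GMP and 3 in MEP.

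Whether the LSK values of control mice overlapped those of another gate varied with the gene and the gate. Ltf, Retnlg, Lcn2 and Mmp8 did not overlap between CMP and LSK (12.6% of all genes tested did not overlap in this direction). Chil3, Retnlg, S100a8, Lcn2 and Mmp8 did not overlap between GMP and LSK (17.2% of all genes), and Mmp8 alone did not overlap between MEP and LSK (11.5%). Where values overlapped, it was the library of control mouse 1 that reached down to the LSK range, for Ngp at 109 in GMP and 123 in MEP against 59.2 to 645 in LSK.

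Among Cxadr ko mice, all 9 genes were called higher in CMP than in LSK (log2 3.94 to 4.79, median 4.25, background 14.3% in either direction and 7.41% higher) and 9 of 9 in GMP (2.73 to 3.82, median 3.26, background 31.7% and 14.5%). In MEP 8 of 9 were called (2.16 to 3.21, median 2.35, background 16.9% and 8.19%). Camp was the exception at 2.16 ± 0.72, limma adjusted p = 0.055, higher in 3 of 4 mice. The values of all 9 genes in CMP of Cxadr ko mice lay above all those in LSK, against 9.52% of all genes tested. Ltf, Camp, Ngp and S100a9 overlapped between GMP and LSK of these mice. All genes but Ngp, Retnlg and Mmp8 overlapped between MEP and LSK. The shares of all genes for these gates are not given here. Without the block, 2 of 9 were called in MEP. In GMP, 6 of 9 were called without Cxadr ko mouse 2, which lost Camp, Ngp and Chil3 (limma adjusted p = 0.0807, 0.0501 and 0.0785), and 8 of 9 without Cxadr ko mouse 3, which lost Ltf (adjusted p = 0.0529).

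None of the 9 genes passed the test between CMP, GMP and MEP. Between GMP and CMP of control mice 0 of 9 were called, against a background of 14.2% of all genes, with log2 differences from -0.60 to 0.97 and a median of -0.11. Between MEP and CMP 0 of 9 were called (background 0.00581%, median 0.02), and between GMP and MEP 0 of 9 (background 14.9%, median -0.14). For Cxadr ko mice the same 3 comparisons called 0 of 9 genes, against backgrounds of 7.84%, 0% and 9.01%. There the medians were -1.06 for GMP against CMP, -1.77 for MEP against CMP and 0.59 for GMP against MEP. The smallest unadjusted limma p among these 6 comparisons was 0.00393, for MEP against CMP in Cxadr ko mice. Leaving out Cxadr ko mouse 1 gave 2 called genes in that comparison and 5 for GMP against MEP, and leaving out control mouse 3 gave 1 for GMP against MEP in control mice.

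Most genes of a primary granule list, and some transcription factor genes of granulocytes, were called between GMP and CMP. The list of 10 was Mpo, Elane, Prtn3, Ctsg, Ms4a3, Ctsc, Serpinb1a, Gstm1, Nkg7 and Calr. It is wider than its name, since Calr, a chaperone, and Gstm1, a glutathione transferase, are not granule proteins. Mpo, Elane, Prtn3 and Ctsg are also among the GMP markers summed above. The calls and read shares of this list are thus not separate from that check of the gates. Of the 10, 9 were called higher in GMP than in CMP and 9 higher in GMP than in MEP of control mice. The median log2 differences were 1.31 and 1.36, with the backgrounds of 14.2% and 14.9% given above. Whether the 9 genes and this list differ from each other was not tested. Mpo, the gene of myeloperoxidase, was at 55298 ± 6812 (SD, n = 4) in CMP and 163990 ± 38913 in GMP (log2 1.55 ± 0.08 SE, limma adjusted p = 4.53e-08). Of 14 transcription factor genes 5 were called higher and 2 lower in GMP than in CMP. Cebpe, which encodes C/EBP epsilon, was at 422 ± 92.9 in GMP of control mice, against 7.26 ± 9.01 for LSK, 25.0 ± 9.26 for CMP and 53.0 ± 67.0 for MEP, and its log2 difference of GMP from CMP was 4.08 ± 0.63 (limma adjusted p = 0.00049). Gfi1, a repressor needed for granulocyte development, was at 59.4 ± 17.8 in CMP and 226 ± 22.9 in GMP (1.95 ± 0.25, limma adjusted p = 0.00011).

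Of a list of 25 other secondary and tertiary granule genes, 23 were tested between the gates of control mice. Higher in GMP than in LSK were 15 of them, and 1 was lower, with a median log2 difference of 2.06 (41.9% of all genes tested were called in either direction). Between GMP and CMP 7 were called higher and 1 lower, with a median of 0.53 (14.2% of all genes). By lowest p, the named ones were Hdc, Trem3, Padi4 and Hp, with GMP to CMP differences of 1.56 ± 0.12, 2.42 ± 0.27, -0.69 ± 0.08 and 2.30 ± 0.28. These 4 are histidine decarboxylase, a receptor of the triggering receptor family, an arginine deiminase and haptoglobin. Of the 4 only haptoglobin is a granule protein in the usual sense, so the list is wider than its name. Of 27 mature neutrophil genes 24 were tested, of which 12 were called higher and 6 lower in GMP than in LSK, and 3 higher and 6 lower in GMP than in CMP, to be read against the same 41.9% and 14.2%. The genes of the primary granule list took 2.60% to 3.85% of reads in GMP libraries, 0.788% to 1.15% in MEP, 0.842% to 1.15% in CMP and 0.265% to 0.374% in LSK, both genotypes together. The 9 genes took from 0.00233% in LSK of control mouse 1 to 1.17% in MEP of control mouse 3.

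**Figure D2:**
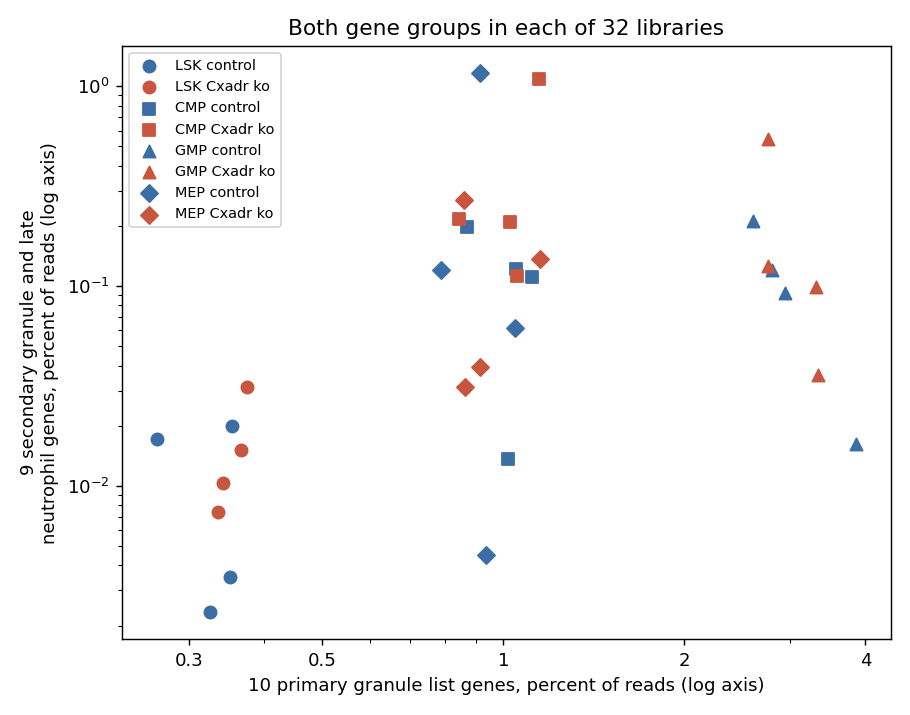
Percent of reads in the 9 secondary granule and late neutrophil genes (y axis, log scale) against that in the 10 genes of the primary granule list (x axis, log scale), with 1 symbol per library, shapes for gates and colours for genotypes. The primary granule share separates LSK (at most 0.374%) and GMP (at least 2.60%) from the rest, while the share of the 9 genes spreads from 0.00453% to 1.17% within MEP of control mice alone.

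The spread between mice of 1 group was large, and the 9 genes shared it. The highest over the lowest level in a group of 4 mice had a median over the 9 genes of 229.6 for MEP, 24.4 for GMP, 13.3 for CMP and 6.66 for LSK of control mice, and of 12.6, 10.8, 9.003 and 4.04 in the same gates of Cxadr ko mice. The largest was that of Retnlg in MEP of control mice, at 671, from 6.67 in mouse 1 to 4474 in mouse 3. On the log2 scale the SD within groups was 1.26 for Mmp8 and up to 2.18 for Camp. The median over 18475 genes was 0.358, and it was 0.220 over the 9928 genes with a mean of at least 100. By this measure 8 of the 9 genes lay above the 96th percentile of all genes tested and Mmp8 at the percentile of 89.4. In bulk libraries more cells of a type and more RNA per cell cannot be told apart.

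In MEP of control mice the 9 genes summed to 0.00453% of reads in mouse 1, 0.120% in mouse 2, 1.17% in mouse 3 and 0.0623% in mouse 4. In CMP of Cxadr ko mice they summed to 0.216%, 1.08%, 0.209% and 0.112%. The share in GMP of Cxadr ko mice was 0.0359%, 0.547%, 0.125% and 0.099%. MEP of control mouse 3, CMP of Cxadr ko mouse 2 and GMP of Cxadr ko mouse 2 had the highest value of their group for all 9 genes, which lay above the group mean by 3.69, 1.93 and 2.09 on average on the log2 scale.

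Control mouse 1 had the lowest value of the 4 control mice in 34 of 36 combinations of gene and gate. The exceptions were Lcn2 and Mmp8 in LSK, where mouse 4 was lowest. Cxadr ko mouse 2 had the highest value of its genotype in 27 of 36, which were all 9 genes in LSK, CMP and GMP. In MEP it was Cxadr ko mouse 1 that had the highest value for all 9 genes, although the same mouse had the lowest GMP value for 8 of them. Cxadr ko mouse 1 was thus not high or low in the same way in each of its gates, whereas control mouse 1 was low in all 4.

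Levels moved together from library to library. Over the 32 libraries, the deviations of log2 levels from the mean of the group of 4 mice had a Pearson r between 0.717 (Retnlg and Lcn2) and 0.985 (Camp and Ngp) over the 36 pairs of genes, with a median of 0.889. These points share the library, its depth and, across gates, the mouse. The average r of a gene with the other 8 was highest for S100a9 at 0.931 and lowest for Lcn2 at 0.824. The 10 genes of the primary granule list had a median r of -0.09 with the mean deviation of the 9 genes. Those of the other secondary and tertiary granule list had 0.63 (21 with a mean of at least 20). The mature neutrophil genes had 0.37 (23 genes) and the transcription factor genes 0.26 (14 genes), beside -0.00 over 14280 genes.

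**Figure D3:**
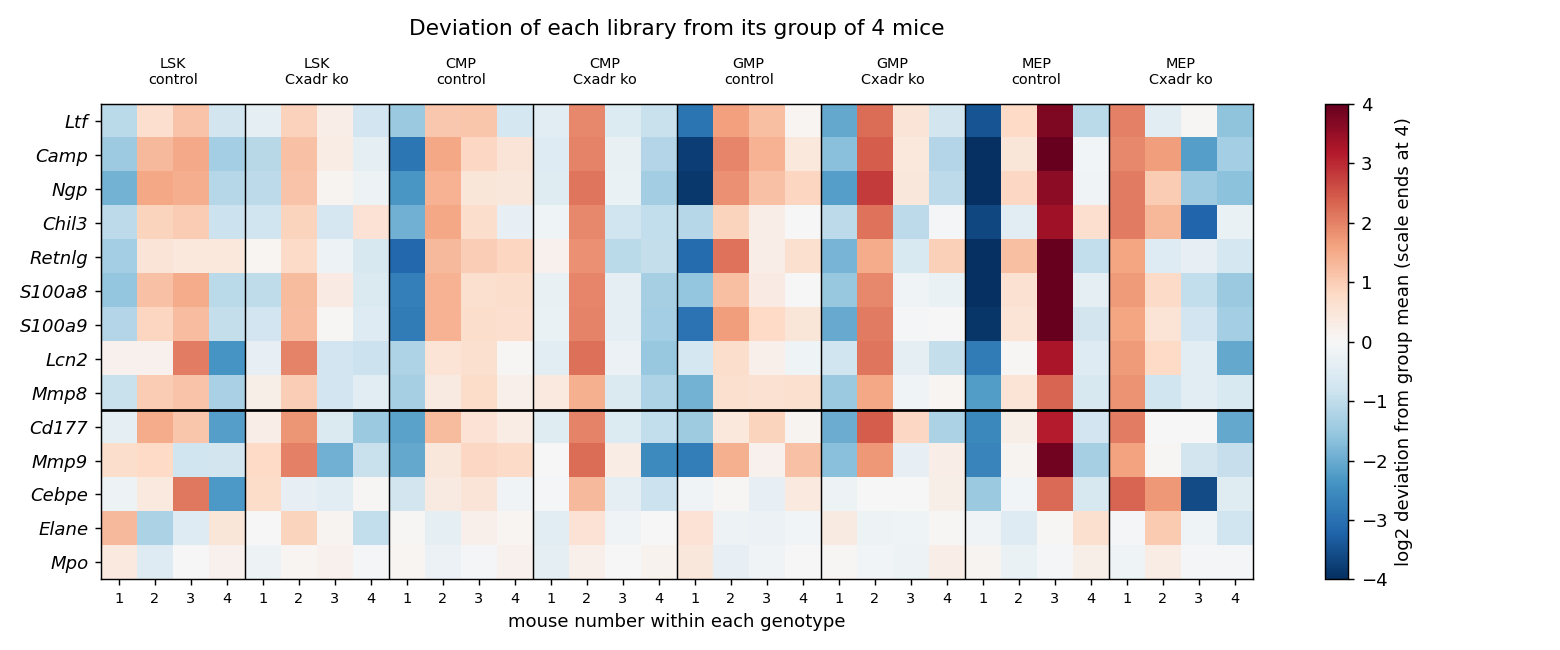
Deviation of each library from the mean of its group of 4 mice on the log2 scale (colour, red above and blue below, scale ending at 4) for the 9 genes (above the line) and 5 other granulocyte genes, with libraries ordered by gate, genotype and mouse number. The 9 genes change colour together, with MEP of control mice 1 and 3 at the ends (average deviations of -3.77 and 3.69). Mpo runs from -0.504 to 0.444 and Elane from -1.26 to 1.29.

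The genes most like the 9 were chosen as the 10 with the highest r with their mean log2 level, and the 10 with the highest r of the deviations, among 14280 genes over 32 libraries. By level these were Cd177 (r = 0.953), Ifitm6 (0.936), Wfdc21 (0.934), Mmp9 (0.917), Gm6522 (0.890), Il1f9 (0.887), Lrg1 (0.882), Chil1 (0.878), Pilra (0.856) and Ccr1 (0.846). By deviation they were Wfdc21 (0.912), Cd177 (0.906), Ifitm6 (0.882), Itgb2l (0.862), Chil1 (0.855), Gm6522 (0.854), Mmp9 (0.848), Il1f9 (0.812), Nisch (0.791) and Pilra (0.786). Both lists held 8 of the same genes. Cd177 encodes a neutrophil surface protein that is also held in secondary granules, and Mmp9 encodes gelatinase B of tertiary granules. Gm6522 shares exon words with Chil3, and the part of such shared reads in its likeness was not tested. Cebpe had an r of the deviations of 0.641.

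Markers of mature neutrophils were high in the same libraries in part. The list is Cxcr2, Mmp9, Csf3r, Il1b and Trem1, and 4 of the 5 were above 0 in every library, with Mmp9 at 0 in LSK of Cxadr ko mouse 3. Mmp9 is also in the other secondary and tertiary granule list. It was already named among the genes most like the 9, so its values below are not a separate observation. Their summed level was 949.6 to 1744 in MEP, 1101 to 1234 in GMP, 1122 to 1342 in CMP and 793 to 1231 in LSK of control mice. In Cxadr ko mice it was 1097 to 1778 in MEP, 891 to 2166 in GMP, 1192 to 2674 in CMP and 829 to 1538 in LSK. The largest sum was that of CMP of Cxadr ko mouse 2, one of the libraries with the highest levels of the 9 genes. Among GMP libraries the largest was that of Cxadr ko mouse 4, in which the 9 genes took 0.099% of reads. Csf3r was the highest of the 5 markers in every library. In GMP of Cxadr ko mouse 4 it was at 1257.5 of the 2166. Mmp9 at 79.1 and Cxcr2 at 189 were lower there than in GMP of Cxadr ko mouse 2, at 219 and 255. Csf3r, Il1b at 148 and Trem1 at 493 were higher there than in mouse 2, at 826, 11.6 and 443. Mmp9 was at 346 in MEP of control mouse 3 and at 2.86, 24.7 and 8.59 in the other 3 mice, and Cxcr2, the receptor of neutrophil-attracting chemokines, was at 348 against 205, 165 and 231. In CMP of Cxadr ko mouse 2 Mmp9 was at 603 and Cxcr2 at 585, against 21.2 to 160 and 206 to 239 in the other mice. Csf3r, the receptor of granulocyte colony-stimulating factor, was at 693 in MEP of control mouse 3 against 603 to 720 in the other 3. Il1b was at 73.9 in that library against 6.01 to 44.8, and Trem1 at 283 against 82.5 to 177. In CMP of Cxadr ko mouse 2 Csf3r was at 1093 against 604 to 749 in the other mice. Trem1 was at 323 there against 92.4 to 299, and Il1b at 69.4 against 15.4 to 124. In MEP of Cxadr ko mouse 1, the highest of its group for all 9 genes, the marker sum was 1203, against 1778 in mouse 2. Cxcr2 and Csf3r were lower in mouse 1 than in mouse 2 of that group, and Mmp9, Il1b and Trem1 were higher. The part of mature cells in these levels was not tested.

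The letters of a C/EBP site stood before the starts of 6 of the 9 genes. The motif TTGCNNAA was searched on both strands in the 250 bases before the RefSeq start of each gene, and the genes with a match were Lcn2, Ltf, Mmp8, Ngp, Retnlg and S100a9. It was found in 9.56% of 32851 promoters. The PU.1 letters GAGGAAG, on both strands, were found before Lcn2, Mmp8 and S100a8 and in 10.6% of promoters, and TATAAA on the gene strand before S100a8 and in 7.59%. The C/EBP matches are printed because the levels of these genes moved together and Cebpe, whose protein binds such a motif, was the factor gene described above. A match is a run of letters and not evidence of binding, and the motifs do not overlap each other in these promoters. The stretches below are from RefSeq on GRCm38.p6, read 5′ to 3′ on the strand of the gene, with the match and up to 30 bases on either side within the searched window. Capitals mark the C/EBP match.
Ltf, chr9:111019187-111019254, plus strand: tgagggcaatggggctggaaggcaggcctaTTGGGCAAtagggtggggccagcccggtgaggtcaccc
Mmp8, chr9:7558380-7558428, plus strand: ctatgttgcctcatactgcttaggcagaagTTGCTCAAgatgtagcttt
Ngp, chr9:110419640-110419707, plus strand: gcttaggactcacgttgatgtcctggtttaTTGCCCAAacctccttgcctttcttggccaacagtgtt
Retnlg, chr16:48872358-48872399, plus strand: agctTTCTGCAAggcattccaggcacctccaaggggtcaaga
S100a9, chr3:90695920-90695971, minus strand: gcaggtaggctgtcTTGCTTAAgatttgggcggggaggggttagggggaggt

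The match begins 75 bases before the start in Ltf, 19 in Mmp8, 138 in Ngp, 246 in Retnlg and 236 in S100a9. The Lcn2 match and the other match of Ngp lie in annotated GENCODE exons and are not shown. Camp and Chil3 held none of the 3 motifs in this window, and S100a8 held the PU.1 and TATAAA letters only. The mean r of deviations with the other 8 genes was 0.913 for Camp, 0.920 for S100a8 and 0.832 for Chil3. It was 0.824 to 0.931 for the genes with a match. Whether the matches have a part in how the levels vary was not tested.

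The last question was whether the 9 genes differed between control mice and mice labelled Cxadr ko. No gene passed the test in any gate. In LSK, 8 genes were tested (Lcn2 had too few reads), 0 were called, and the background was 0.0433% of 16166 genes. In CMP 0 of 9 were called (background 0.0254%), in GMP 0 of 9 (0.0192%), in MEP 0 of 9 (0.0253%) and in the mean over gates 0 of 9 (0.0249%). Of all genes tested, 1144 in CMP, 1387 in LSK, 938 in MEP, 882 in GMP and 1308 in the mean over gates had an unadjusted limma p under 0.05. edgeR called 0 of the 9 in each of these comparisons, and DESeq2 called 1 in LSK and 0 elsewhere. The F test of whether the genotype difference varied between gates called 0 of 9 and 0 of 18475 genes by limma, with 1082 of them at an unadjusted p under 0.05, and edgeR and DESeq2 called 0 of the 9.

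The values of the 9 genes were higher in mice labelled Cxadr ko for 9 of 9 in CMP, 8 of 8 tested in LSK, 8 of 9 in GMP and 5 of 9 in MEP. The median log2 difference was 1.88 in CMP, 0.94 in LSK, 0.83 in GMP, 0.00 in MEP and 0.94 in the mean over gates, against medians between -0.01 and 0.00 over all genes tested. Since the 9 genes move together, these counts are not 9 separate observations. Without control mouse 1 the median was 0.99 in CMP, 0.56 in LSK, -0.10 in GMP and 0.11 in the mean over gates. In MEP the median was 1.13 without control mouse 3 and -1.90 without mouse 1 of both genotypes.

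**Figure D4:**
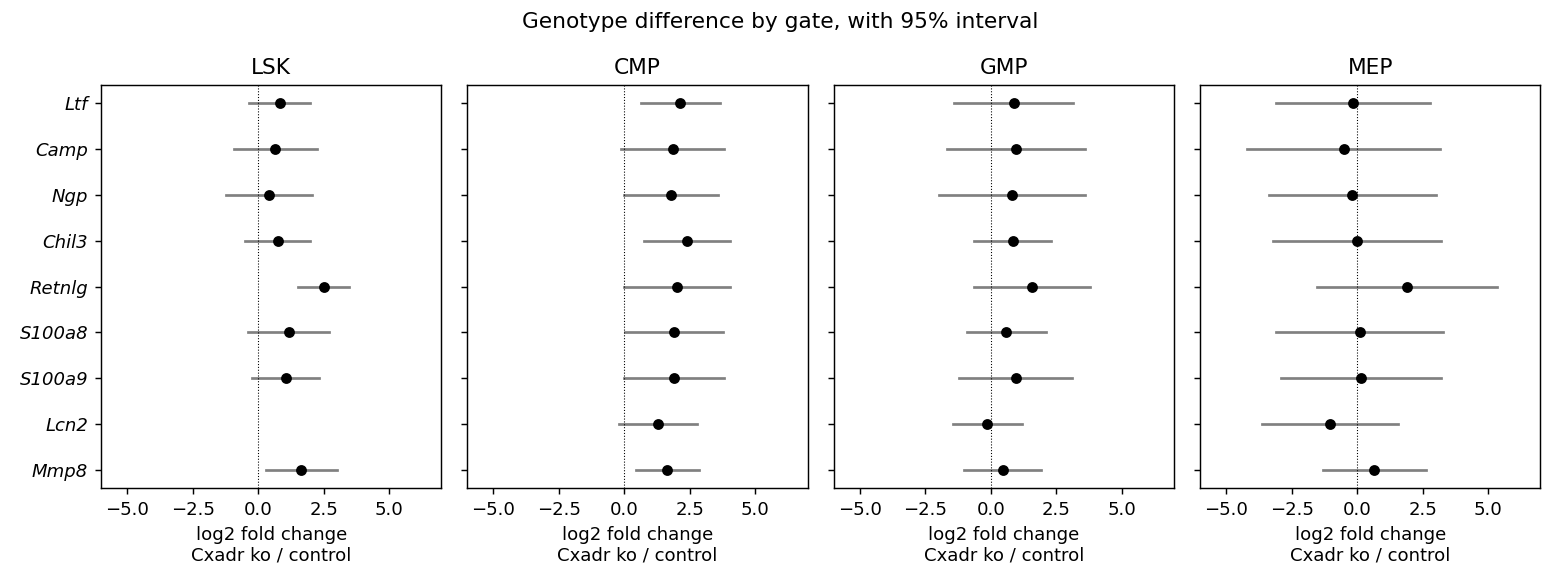
Log2 fold change of Cxadr ko over control mice (x axis) for each of the 9 genes (y axis) in the 4 gates, with the 95% interval of the limma fit (4 mice per group). Intervals lie furthest from 0 for Retnlg in LSK (1.52 to 3.48), and in MEP every interval includes 0. Lcn2 was not tested in LSK.

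Retnlg in LSK had the smallest p of the 9 genes in any gate. It was at 5.75, 23.3, 22.0 and 22.2 in control mice and 102, 163, 84.2 and 61.6 in mice labelled Cxadr ko, and 4 of 4 of the latter lay above all control values. Of all genes tested in LSK, 2.93% did not overlap in this direction. The log2 difference was 2.50 ± 0.44 (SE, 95% interval 1.52 to 3.48), a 5.66-fold difference on the scale of the count plus 1, with a limma adjusted p of 0.191. DESeq2 gave an adjusted p of 2.43e-06 and edgeR 0.172, and the adjusted p ranged from 2.43e-06 to 0.461 over 15 other settings. Without control mouse 1 the difference was 2.05 (limma adjusted p = 0.116). Immunoglobulin segments took 12.5% of reads in LSK of control mouse 1 and 0.0357% to 5.25% in the other LSK libraries. The B cell marker sum there was 845130 against at most 318930 in the other LSK libraries, and its part in the Retnlg difference was not tested. The summed mature neutrophil markers overlapped between the genotypes in LSK, but most of that sum was Csf3r, at 1143 of 1231 in control mouse 3. Each marker taken singly overlapped as well. Cxcr2 was at 21.5 to 37.0 in control mice and 10.3 to 84.2 in mice labelled Cxadr ko, and Mmp9 at 0.814 to 4.49 and 0 to 14.2. The part of mature cells in the Retnlg difference was not tested.

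In CMP, Ltf did not overlap between the genotypes, with 80.3 to 494 in control mice and 542 to 3770 in mice labelled Cxadr ko, and 2.36% of all genes tested did not overlap in this direction. Its log2 difference was 2.13 ± 0.68 (SE, 95% interval 0.64 to 3.63), with a limma adjusted p of 0.62. Chil3 had the largest difference in CMP at 2.40 ± 0.74 (95% interval 0.77 to 4.04, limma adjusted p = 0.62), and Mmp8 had 1.63 ± 0.55 (0.43 to 2.84, limma adjusted p = 0.62). For S100a8 it was 1.89 ± 0.85 (0.01 to 3.77), with 378 to 6565 in control mice and 3732 to 36313 in mice labelled Cxadr ko, and for Camp 1.84 ± 0.89 (-0.12 to 3.81). Some other marker lists were also higher by value in this gate, with 0 genes called. Among them were 4 of 4 tested B cell markers (median log2 difference 1.27), 2 of 2 erythrocyte markers (0.89) and 4 of 5 mature neutrophil markers (0.56). Lower by median were the LSK markers (1 of 5 higher, -0.33), the MEP markers (0 of 3, -0.08) and the 1 tested macrophage marker (-0.66). The B cell sum was 3966 to 9174 in control mice and 4350 to 15423 in mice labelled Cxadr ko, and the erythrocyte sum 50.9 to 74.5 and 72.4 to 220.2, both highest in Cxadr ko mouse 1. The mature neutrophil marker sum was highest in Cxadr ko mouse 2. The part of these markers in the differences was not tested.

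In the mean over gates Retnlg had the largest difference, 2.00 ± 0.84 (SE, 95% interval 0.15 to 3.85, limma adjusted p = 0.593), and Mmp8 followed at 1.10 ± 0.52 (-0.06 to 2.26, limma adjusted p = 0.619). The other 7 genes ran from 0.13 for Lcn2 to 1.01 for S100a9. With 4 mice per group and this spread, the 95% intervals in MEP reached from -4.19 to 3.18 for Camp and from -1.54 to 5.35 for Retnlg, so differences of several fold in either direction were not detectable in that gate. Of the other secondary and tertiary granule list 0 of 22 were called in CMP, with a median log2 difference of 0.81. Of the primary granule list 0 of 10 were called, with a median of 0.06.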

How the data were processed

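Per the labels' protocols, cells were sorted into TRIzol and RNA libraries prepared using a NEBNext kit for low input. The submitters' processing notes name STAR and DESeq2 with GRCm38 or mm10, and no source used here gives the read counter, its strand setting or its annotation. The deposited signal values are gene counts divided by the authors' size factor of each library: 100% of 765992 values above 0 were whole reads within 0.001 reads. Reads recovered this way were used for edgeR and DESeq2, and no library repeated another, since replicate pairs had a chi-square of 6.39 to 97.7 per degree of freedom.

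Tests were limma 3.58.1 in R 4.3.3 (two-sided, with trend), fitted to log2 values with 1 added to each normalized count, for genes at 10 or more in at least 4 fitted libraries. Genotypes were compared as 4 against 4 mice within a gate, on mouse means, and by an F test over 32 libraries. Gates were compared within a genotype with the mouse as a fixed block, because the labels give the same animal for its 4 gates. Benjamini-Hochberg adjustment was over all genes tested, and fold changes of low genes are understated by the added 1. Alternatives were TMM scaling, edgeR 4.0.16, DESeq2 1.42.0, no filter, a pseudocount of 5, the replicate block, and leaving out mice. The tests were tried on simulated data first. The 9 genes and the lists were chosen with earlier results of these data known. Of list genes, at most 4 per list were named, called ones by lowest p first and otherwise those with the highest mean. Cebpe, Cxcr2, Mmp9 and Csf3r were singled out after their values were seen. Exon lengths and shared words came from GENCODE M21, promoters from RefSeq.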

Additional observations from a re-analysis of the deposited data

Results flagged for a closer look

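Of 72 combinations of gene and group, 23 had 1 mouse far from the other 3, by the gap to the nearest value over the range of the group. The rate of about 1 in 20 by chance holds for normally distributed values. The rule was applied to normalized counts and not to log2 levels, so the number flagged cannot be set against that rate. On the log2 scale MEP of control mouse 1 lay as far from its group mean (-3.77 on average) as that of mouse 3 (3.69). The 9 genes also vary together, so these are few separate events.

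The MEP library of control mouse 3 stood high for 8 of the 9 genes: Ltf at 3512, Camp at 21279, Ngp at 28216, Chil3 at 2216, Retnlg at 4474, S100a8 at 39276, S100a9 at 15995 and Lcn2 at 1474. The CMP library of Cxadr ko mouse 2 stood high for Ltf at 3770, Camp at 12431, Ngp at 35571, Chil3 at 2757, S100a8 at 36313, S100a9 at 13770 and Lcn2 at 1174.5. The GMP library of the same mouse stood high for Chil3 at 1327, S100a8 at 19189 and Lcn2 at 807, and its LSK library for Lcn2 at 50.3. The MEP library of Cxadr ko mouse 1 stood high for Retnlg at 2227 and Mmp8 at 1118. Control mouse 1 stood low for Retnlg in LSK at 5.75 and for Mmp8 in GMP at 79.8.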

How the results depend on the processing

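The differences of CMP, GMP and MEP from LSK kept their direction for 9 of 9 genes in both genotypes under all 10 other settings, and so did the genotype difference in CMP under 15. In some of 15 settings the genotype difference changed sign for 1 of 8 genes in LSK, 7 of 9 in GMP, 9 of 9 in MEP and 3 of 9 in the mean over gates. With no replicate block, the genes called against LSK in control mice fell to 3 in CMP, 4 in GMP and 3 in MEP, and to 2 in MEP of Cxadr ko mice. Without 1 mouse, these counts ranged from 7 to 9, 8 to 9, 8 to 9 and 6 to 6, and from 6 to 9 for GMP of Cxadr ko mice. Called genes ranged from 0 to 1 for GMP against MEP in control mice, and from 0 to 2 for MEP against CMP and 0 to 5 for GMP against MEP in Cxadr ko mice. DESeq2 called 1 gene in LSK between genotypes, Retnlg. The median genotype difference in MEP was -1.902 without mouse 1 of both genotypes, and -1.302 to 1.125 without 1 mouse. Signs changed for Ngp in LSK with edgeR (-0.062) and DESeq2 (-0.057) and ranged from -0.215 to 0.927 without 1 mouse. In the mean over gates they changed for Camp with edgeR (-0.015), DESeq2 (-0.019) and without mouse 1 of both genotypes (-0.221), for Ngp (-0.181) and for Lcn2 (-0.260) in the last setting, with ranges without 1 mouse of -0.335 to 1.416, -0.319 to 1.270 and -0.459 to 0.645. The cause was not tested. Between genotypes the titles tie mice of 1 number to nothing shared. The column headers carry animal numbers that set mouse 1 of both genotypes apart, and what these stand for is not given. Immunoglobulin segments took 12.5% and 5.25% of LSK reads in control and Cxadr ko mouse 1, and at most 1.43% in other LSK libraries. Their GMP monocyte marker sums were 23225 and 19977, with at most 11267 in other GMP libraries. Deviations of mice of 1 number correlated at 0.121 to 0.498 for mouse 1 over the 4 gates and at -0.0473 to 0.0968 for mice 2 to 4. With 4 mice to match, 16 of 32 libraries correlated best with their own number. Not every pair passed 0.1, so the numbers were not taken to pair the mice. The replicate block between genotypes was run for comparison. It called 0 of the 9 genes in each gate, with Retnlg in LSK at 2.502 (limma adjusted p = 0.134). Over all genes, the counts called between genotypes ranged from 4 to 93 in LSK, 0 to 39 in CMP, 0 to 12 in GMP, 0 to 23 in MEP, 4 to 67 in the mean over gates and 0 to 16 for the difference between gates, the highest from DESeq2. Those between gates ranged from 2314 to 4150, 5571 to 7360 and 3164 to 4874 for CMP, GMP and MEP against LSK in control mice, and from 0 to 197 for MEP against CMP.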
